A study of Rattus norvegicus with 65 samples.

Results

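Hypothalamic RNA was compared between 2 experimental periods, labelled batch A (the first) and batch B (the second), within the groups of rats that were present in both. All libraries of a group held in both batches were taken, which gave 43 of the 65 libraries of the series (24 from the first period and 19 from the second). The 4 groups were Sham (sham operation, 5 animals in A and 6 in B), Bypass (Roux-en-Y gastric bypass, 11 in A and 3 in B), Saline (saline only, 3 in A and 5 in B) and PYY_Lira (PYY3-36 at 0.1 mg/kg/day by minipump together with liraglutide at 0.4 mg/kg/day, 5 in each batch). All were adult male Wistar rats of 9 to 10 weeks at the start that had been fed a high-fat diet for 6 weeks before the intervention and could then choose between a high-fat and a low-fat diet. Brains were taken 4 weeks after the intervention, following 10 h without food, and frozen, the hypothalamus was cut from the frozen brain, and 1 library was made per animal from poly-A RNA. The study was split into periods for reasons of capacity, with investigators and conditions kept, so no treatment separated them. The estimated library fragment size was 285 bp in batch A and 335 bp in batch B. Whether dissection, RNA extraction and sequencing were also done by batch was not given in the sources used here, so their parts and that of the period cannot be told apart.

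Oligo-dT beads capture RNA by its poly-A tail, so a poly-A library is made mainly of mature, cytoplasmic messenger RNA. It also holds smaller amounts of unspliced and nuclear RNA, of primary transcripts from which microRNA hairpins are cut, and of ribosomal and mitochondrial RNA that is carried along. Messenger RNA of ribosomal proteins, of the respiratory chain and of the proteasome is short and abundant in every cell, and the genome holds many intronless pseudogene copies of it. Genes of chromatin enzymes, ion channels and collagens have long transcripts. The hypothalamus itself is marked by neuropeptides of feeding, stress and water balance.

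Counts on genes ranged from 25912861 to 36539714 in batch A and from 20040821 to 35011015 in batch B. Counts did not overlap between the batches in Sham and Saline, and were lower in batch B in Sham (exact two-sided permutation test, Benjamini-Hochberg adjusted over 4 measures and 4 groups, p = 0.0231) and Bypass (p = 0.0377, exact permutation test). Fewer genes had a count in batch B in Sham and PYY_Lira (both p = 0.0231, exact permutation test), with means of 24219 against 22884 genes in Sham and 25108 against 23064 in PYY_Lira. In Saline, 3 against 5 animals cannot give an unadjusted p below 0.0357, and the adjusted p was 0.0519 (exact permutation test) for each of the 4 library measures. All 17 neuropeptide and transcription factor genes listed for the hypothalamus were expressed, and their summed level was at least 263 CPM (counts scaled to library size) in every library. RNA of neighbouring tissue varied between animals: the summed level of the pituitary genes ran from 0.616 to 501 CPM, of choroid plexus genes from 10.04 to 3564 CPM and of meningeal genes from 69.8 to 3987 CPM. In 14 libraries of both batches at least one of these sums was over 10 times the median library. One library of batch A, Bypass replicate 11, stood apart from the other 23. It had the fewest genes with a count (22476) of batch A. Main counts are therefore also given without it.

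At a Benjamini-Hochberg adjusted p under 0.05 (edgeR quasi-likelihood test with terms for group and batch), 4191 of 21709 genes were higher in batch B (19.3%) and 4840 were lower (22.3%). Over 2-fold, 141 genes were higher (0.65%) and 961 lower (4.43%). In whole tissue a change in the number of cells of a type and in RNA per cell cannot be told apart. Small differences were split nearly evenly and large ones went down in batch B. Without Bypass replicate 11, 4236 genes were higher and 5411 lower. The split depended on the scaling, with 2878 higher and 5938 lower on library totals and 5840 higher and 3396 lower with an offset for exon length. Of the genes over 2-fold higher, 60 were protein-coding, 55 pseudogenes, 16 long non-coding RNA (lncRNA) genes, 8 tRNA and 2 rRNA genes. Of those over 2-fold lower, 500 were protein-coding, 316 lncRNA genes, 103 pseudogenes and 32 microRNA (miRNA) genes.

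The 6 genes of smallest adjusted p among those over 2-fold lower with 1 sign in all groups were Snrnp70, Kmt2d, Dot1l, Pnn, Pnisr and Clasrp. Snrnp70 (chromosome 1, 101367470 to 101388153 of Rnor_6.0) encodes the 70K protein of the U1 small nuclear ribonucleoprotein, which recognises the start of introns. In Sham its level was 454, 463, 526.2, 533 and 725 CPM in batch A and ranged from 246 over a median of 260 to 272 CPM in batch B. In Saline it was 505, 576 and 598 CPM in A and 194, 214, 231, 243 and 300 CPM in B. In Bypass the 11 libraries of A ranged from 284 over a median of 547 to 630 CPM, and those of B had 215, 248 and 256 CPM. No group overlapped between the batches, and the lowest library of batch A was Bypass replicate 11, with the next at 380 CPM. In PYY_Lira, Snrnp70 was at 464, 531, 534, 553 and 620 CPM in A and at 192, 200, 228, 251 and 259 CPM in B. The log2 fold change of Snrnp70 was -1.15 (SE 0.07, adjusted p = 1.01e-14). Kmt2d, a histone H3 lysine 4 methyltransferase, had 87.5 to 280 CPM with a median of 220 in batch A and 81.6 to 132 CPM with a median of 98.9 in batch B. Dot1l, a histone H3 lysine 79 methyltransferase, had 39.4 to 111 CPM (median 93.0) in A and 33.4 to 56 CPM (median 40.8) in B. For both, Bypass replicate 11 was the one library of batch A within the range of batch B, and the groups other than Bypass did not overlap. Their log2 fold changes were -1.11 (SE 0.09, adjusted p = 1.92e-12) for Kmt2d and -1.09 (SE 0.09, adjusted p = 5.23e-12) for Dot1l. Pnn, Pnisr and Clasrp, which encode proteins of or near the spliceosome, fell by 1.03, 1.02 and 1.10 on the log2 scale.

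Lists of related genes did not all share that direction. Of 25 genes with Snrpa to Snrpg or Lsm symbols, most of them members of the Sm and LSm rings of the splicing particles, 12 were higher and 0 lower (edgeR), with a median log2 fold change of 0.20 against -0.02 over all genes tested. Snrpd2, a subunit of the Sm ring, was 0.55 higher on the log2 scale. Among 59 genes with splicing in their annotated description, a list added after the data were seen, 10 were higher and 25 lower (42.4%), with a median of -0.13. Among 176 genes with chromatin or Mediator terms in their description, added in the same way, 42 were higher (23.9%) and 59 lower (33.5%), with a median of -0.03.

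**Figure D1:**
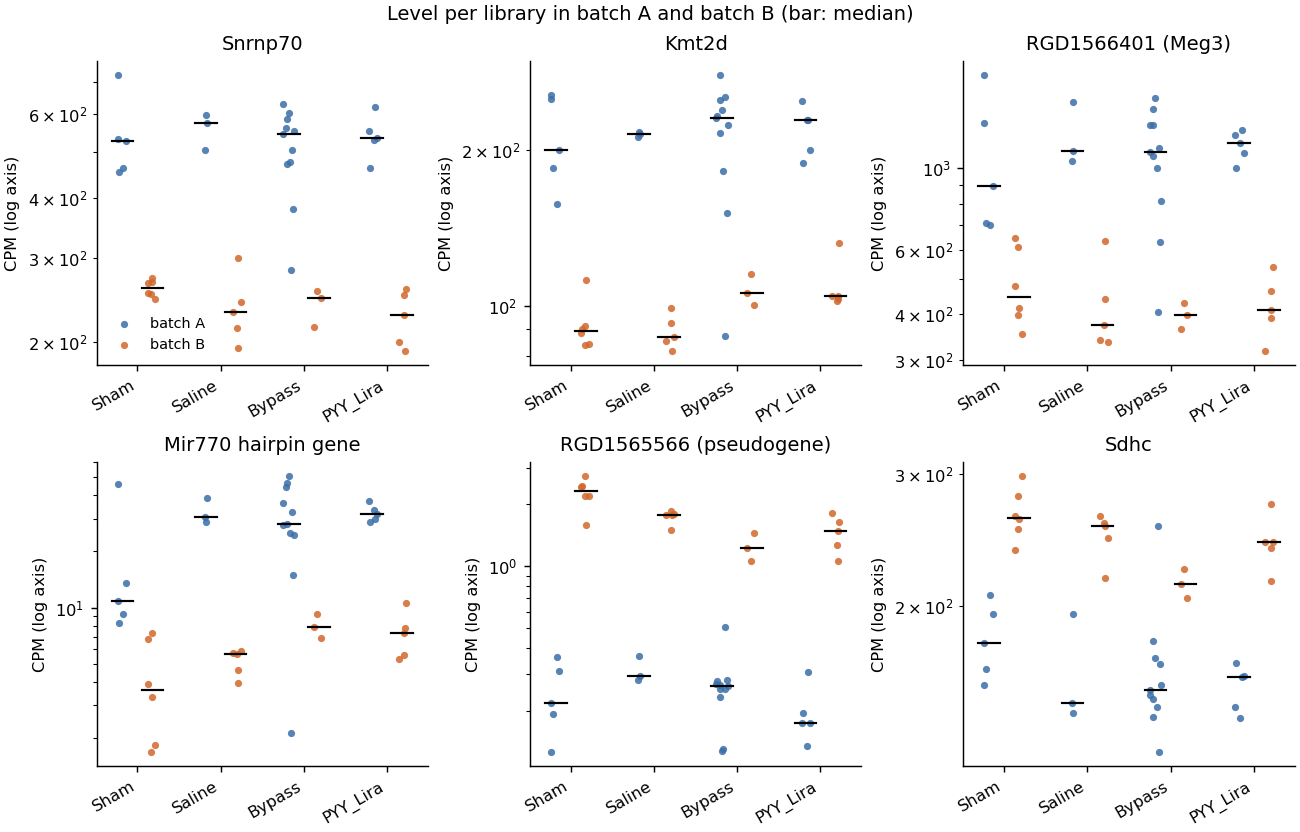
Level per library in CPM (log axis) of 6 genes in batch A (blue) and batch B (orange), by group, with the median as a bar. Snrnp70, Kmt2d, Meg3 and the Mir770 hairpin gene were lower and RGD1565566 and Sdhc higher in batch B. Replicate 11 of Bypass batch A lay within the range of all batch B libraries except for RGD1565566. There it was the highest of batch A, at 0.510 CPM, with batch B at 1.06 CPM or above.

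Annotated miRNA genes were the gene type most often lower. Of 61 tested, 43 were lower (70.5%, against 22.3% of all genes), 32 of them over 2-fold, and 1 was higher. The median log2 fold change was -1.09. The filter on low counts let a gene enter through the libraries of 1 batch, so scarce genes expressed mainly in batch A were among those tested. How far this shaped the share of miRNA genes lower was not tested. Their median was below 0 in each group, at -1.14 in Sham and in Saline, -0.69 in Bypass and -0.85 in PYY_Lira. In poly-A libraries counts on a miRNA gene are reads over the hairpin locus, from primary or host transcripts, and are not the mature miRNA. Hairpins and mature sequences were found in RefSeq for 52 of the 61 genes. The hairpins of the 3 lower miRNA genes of smallest p among these are shown in the 5′ to 3′ direction with bases 2 to 8 of each annotated mature arm, the seed that pairs with target RNA, in capitals.
Mir770: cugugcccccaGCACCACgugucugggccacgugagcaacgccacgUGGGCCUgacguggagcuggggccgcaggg
Mir1249: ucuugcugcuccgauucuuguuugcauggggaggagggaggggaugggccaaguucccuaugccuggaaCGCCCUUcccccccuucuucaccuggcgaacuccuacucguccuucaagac
Mir338: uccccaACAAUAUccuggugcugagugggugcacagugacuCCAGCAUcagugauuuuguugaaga
In the RefSeq build GRCr8 these lie at chr6:134298084-134298159 (plus strand), chr7:117955517-117955636 (minus strand) and chr10:105796342-105796407 (minus strand). The 5 annotated arms carry 5 distinct seeds, so none was shared.

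Mir770 lies inside Meg3, a maternally expressed lncRNA gene that the files name RGD1566401 (chromosome 6, 133658937 to 133691130 of Rnor_6.0). In Saline, Mir770 had 28.6, 30.4 and 38.4 CPM in batch A and 3.93, 4.66, 5.64, 5.71 and 5.87 CPM in batch B. In PYY_Lira it had 28.7, 29.7, 31.5, 33.5 and 37.4 CPM in A and 5.34, 5.55, 7.30, 7.81 and 10.6 CPM in B. The batches were far apart in both groups. Sham was lower in both batches, with 8.30, 9.27, 10.9, 13.6 and 46.1 CPM in A and 1.68 to 7.35 CPM (median 3.61) in B. In Bypass the range was 2.13 to 50.7 CPM (median 27.9) in A and the values in B were 6.90, 7.88 and 9.25 CPM. Bypass replicate 11 held the lowest value of batch A and was the one library that made Bypass overlap. The log2 fold change of Mir770 was -2.17 (SE 0.24, adjusted p = 1.99e-09). Meg3 itself ranged from 407 over a median of 1110 to 1796 CPM in A and from 318 over a median of 412 to 644 CPM in B, with a log2 fold change of -1.38 (SE 0.13, adjusted p = 1.12e-10). All 8 miRNA genes tested in the imprinted cluster downstream of it (chromosome 6, 133682965 to 133898905 of Rnor_6.0, Mir770 included) were lower, with log2 fold changes from -2.86 to -1.30 and a median of -1.85.

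Of the 61 miRNA genes, 33 lay inside another tested gene on the same strand. The host was lower in batch B for 22 of the 33 and higher for 4. A host of several miRNA genes, such as Ftx or Cep131, was counted for each. Of all genes, 22.3% were lower and 19.3% higher. The median log2 fold change was -1.002 for the miRNA genes inside hosts and -0.28 for the hosts. Mir1249 had a log2 fold change of -1.47 (SE 0.23, adjusted p = 2.46e-06) and its host RGD1304694 of -0.06 (SE 0.07, adjusted p = 0.501). Mir338 had -2.61 (SE 0.46, adjusted p = 1.31e-05), at mean levels of 0.332 CPM in A and 0.0508 CPM in B, where libraries hold few counts, and its host Aatk, a neuronal kinase gene, had -0.27 (SE 0.08). A further 17 lower miRNA genes lay in no tested gene of their strand. Mir3064, the most abundant after Mir770, lies in the RNA helicase gene Ddx5 and had a log2 fold change of -0.35 (SE 0.09, adjusted p = 0.00142).

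Of 2261 lncRNA genes, 128 were higher (5.66%, against 19.3% of all genes) and 585 lower (25.9%, near the 22.3% of all genes). Their median log2 fold change was -0.24. Over 2-fold lower were 316, which made up 32.9% of all such genes, against 10.4% of the genes tested. Miat, an lncRNA of nuclear foci, ranged from 105 over 483 (median) to 765 CPM in batch A and from 35.7 over 152 to 207 CPM in batch B. Its log2 fold change was -1.77 (SE 0.18, adjusted p = 4.95e-10), and the batches overlapped only in Bypass, through replicate 11. Snhg11, a small nucleolar RNA host gene that the files type as protein-coding, had a log2 fold change of -1.47 (SE 0.15, adjusted p = 3.02e-10). The lncRNA genes with the smallest p were LOC108351777 (-1.88, SE 0.17) and LOC102547322 (-1.22, SE 0.11), for which no function is given. Bc1, a short cytoplasmic RNA of dendrites made by RNA polymerase III, had a log2 fold change of -1.11 (SE 0.22, adjusted p = 0.000112). Within single groups it passed in Sham only, and 100% of its nonzero values were not whole, so it shares reads with other places or features.

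Pseudogenes were more often higher than lower, but not among those over 2-fold. Of 1677 tested, 630 were higher (37.6%, against 19.3% of all genes) and 241 lower (14.4%, against 22.3%). Their median log2 fold change was 0.19. Over 2-fold, 55 were higher and 103 lower. Many share reads with copies elsewhere. A read with several places in the genome had been counted as fractions. Among 1358 pseudogenes whose values were mostly not whole the median was 0.23. Among 319 with mostly whole values it was -0.11, with 44 higher and 76 lower. The level of single pseudogenes is therefore uncertain, and reads of the parent gene cannot be told apart from their own. RGD1565566, an intronless ribosomal protein pseudogene (chromosome 1, 61553425 to 61554012 of Rnor_6.0), had the smallest adjusted p of all genes. In Sham it was at 0.126, 0.192, 0.218, 0.311 and 0.363 CPM in batch A and between 1.58 and 2.74 CPM (median 2.30) in batch B. In Saline it was at 0.283, 0.293 and 0.369 CPM in A and at 1.499, 1.77, 1.78, 1.78 and 1.84 CPM in B. In PYY_Lira it was at 0.135, 0.174, 0.175, 0.196 and 0.309 CPM in A and at 1.06, 1.27, 1.49, 1.64 and 1.81 CPM in B. All batch B libraries stood above all batch A libraries, the highest of which was Bypass replicate 11 at 0.510 CPM. The log2 fold change was 2.72 (SE 0.15, adjusted p = 5.05e-17). Rpl37-ps1, a copy of Rpl37, did not overlap in any group either, at 0.0579 to 0.255 CPM in A and 0.431 to 1.21 CPM in B (log2 fold change 2.37, SE 0.17). RGD1560975 (Tuba1a-ps2), LOC690498 (Atp5mf-ps2), LOC682635 (Dda1-ps1) and LOC100363869 (Rpl32l5) were higher by 1.05, 1.69, 1.91 and 1.74 on the log2 scale, without overlap in any group. LOC100360413 and LOC100911991 are near-identical copies of Eef1a1 that share their reads, and both had a log2 fold change of 0.38.

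Over 2-fold, more pseudogenes were lower than higher. LOC102549439 (Zcchc9-ps2), whose values were whole, had a mean of 0.689 CPM in A and 0.0682 CPM in B (log2 fold change -3.20, SE 0.41), and LOC100910092 (Ddx21-ps2) had means of 0.205 and 0.00883 CPM. The other genes with the largest fitted changes were scarce too. Btnl8, a butyrophilin family gene, had a mean of 0.114 CPM in A and was at 0 in all libraries of B, and Mug2, a murinoglobulin protease inhibitor gene, had means of 0.0210 and 0.112 CPM, so that no fold is given for them.

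Messenger RNA of the protein-making, respiratory and protein-degrading machinery was higher in batch B by small amounts. Of 84 cytosolic ribosomal protein genes, 59 were higher and 0 lower, with a median log2 fold change of 0.32. Rpl10, a protein of the large subunit, was 0.45 higher (SE 0.07). The list as first written, by symbol, had 95 genes, 60 higher and 5 lower, and held kinases and a regulator that are not ribosomal: Rps19bp1, a regulator of the deacetylase Sirt1, was at -0.89 (SE 0.08, adjusted p = 1.42e-11) and the S6 kinase gene Rps6kb2 at -0.62. Of 76 mitochondrial ribosomal protein genes, 53 were higher and 0 lower (median 0.24), and of 48 proteasome genes, 34 were higher and 1 lower (median 0.21). Mrpl44 was 0.34 higher (SE 0.05), and the proteasome genes Psma6 and Psmd10 were 0.41 and 0.42 higher. Within Bypass the median of the 84 ribosomal genes was 0.02, against 0.47, 0.43 and 0.32 in Sham, Saline and PYY_Lira.

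Of 82 nuclear genes of oxidative phosphorylation, 64 were higher and 0 lower, with a median of 0.30. Sdhc encodes a membrane anchor of succinate dehydrogenase, complex II of the respiratory chain. Its level was 157, 165, 178, 195 and 207 CPM in Sham A and 238 to 298 CPM (median 262) in Sham B. Saline A had 144, 149 and 195 CPM and Saline B 218, 246, 256, 258 and 264 CPM. PYY_Lira had 142, 147, 161, 161 and 168 CPM in A and 216, 239, 243, 244 and 273 CPM in B. These groups did not overlap. In Bypass the 11 libraries of A ranged from 128 over a median of 155 to 256 CPM and those of B had 205, 214 and 224 CPM, and the highest of A was replicate 11. The log2 fold change of Sdhc was 0.55 (SE 0.06, adjusted p = 2.31e-09). Uqcrc2, a core subunit of complex III, was 0.48 higher (SE 0.06) and Atp5g2, a ring subunit of ATP synthase, 0.47 (SE 0.07).

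RNA of the mitochondrial chromosome itself was also higher. The files list tRNA and rRNA genes there, and of 21 tested 14 were higher and 0 lower, with a median of 0.84. The share of counts on them was higher in PYY_Lira, with means of 0.757% in A and 1.47% in B (adjusted p = 0.0231, exact permutation test). In Sham it was 1.34% and 2.09% (p = 0.0635), in Saline 0.876% and 1.71% (p = 0.0519) and in Bypass 0.939% and 1.02% (p = 0.654), each by exact permutation test. The large rRNA gene mt-Rnr2 had 2338 to 11791 CPM in A (median 4538) and 5299 to 20149 CPM in B (median 9246), with a log2 fold change of 0.83 (SE 0.18, adjusted p = 0.000205). Cytosolic 18S rRNA, listed as Rn18s, had a log2 fold change of 1.46 (SE 0.25, adjusted p = 1.29e-05). Of 6 rRNA genes, 5 were higher, and their median was 0.94, 1.28 and 1.29 in Sham, Saline and PYY_Lira and -0.10 in Bypass. Such RNA has no long poly-A tail, and its part in the other differences was not tested.

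**Figure D2:**
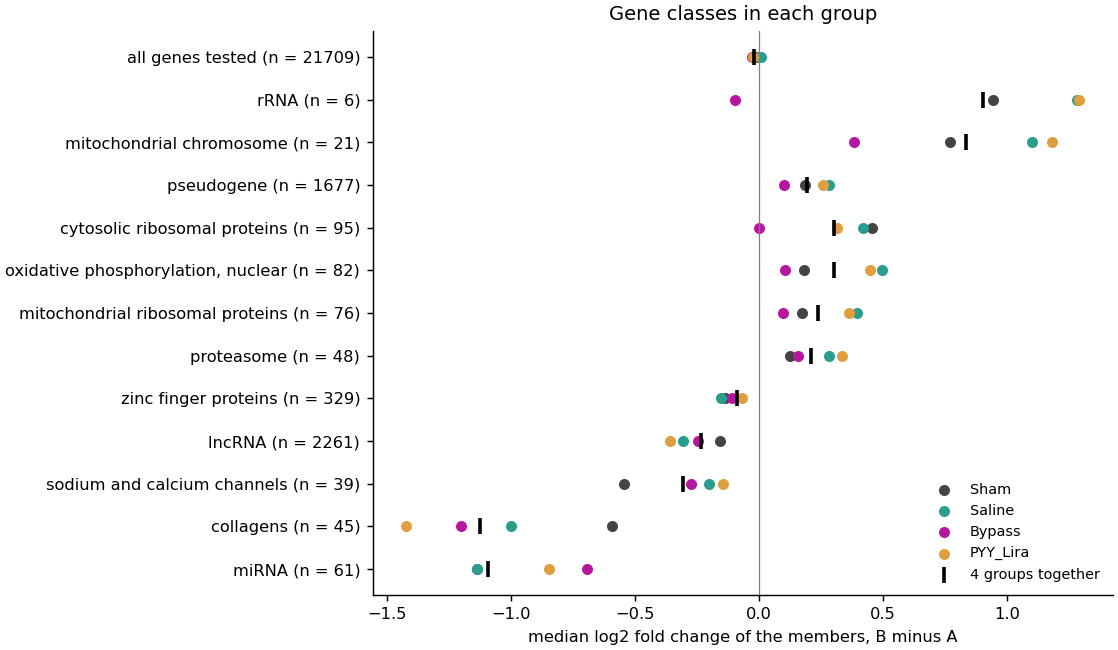
Median log2 fold change (batch B minus batch A) of gene classes, for each group as a point and for the 4 groups together as a bar, with the number of genes tested. Collagens and miRNA genes lay below -0.59 in every group, while the rRNA and ribosomal protein medians of Bypass were near 0.

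Collagen and some channel genes were lower. Of 45 collagen genes, 0 were higher and 34 lower, 26 over 2-fold, and the median was -1.12. Col4a2, a chain of the basement membrane collagen, had 58.9 to 240 CPM (median 185) in batch A and 44.7 to 107 CPM (median 64.7) in batch B, and overlapped only in Bypass, through replicates 6 and 11 of batch A. Its log2 fold change was -1.32 (SE 0.13, adjusted p = 3.14e-10). Col24a1, a fibrillar chain, fell by 1.40 on the log2 scale (SE 0.13) without overlap in any group, and Col16a1, a chain associated with fibrils, by 0.99. The meningeal list of 11 entries, which holds Col1a1, Col1a2 and Col3a1, had 0 genes called. Its group medians were 1.999 in Sham, 0.45 in Saline, -2.41 in Bypass and -2.92 in PYY_Lira. Those of the collagens were below 0 in every group and ran from -0.59 in Sham to -1.42 in PYY_Lira. The signs of the lists thus differed in Sham and Saline, while both lists ranked the groups in the same order. Whether these lists are linked was not tested. Of 39 sodium and calcium channel genes, 0 were higher and 14 lower (35.9%, against 22.3% of all genes), with a median of -0.31. Their median exon length was 6703 bases, and of all genes with 5063 to 6922 bases of exon 33.3% were lower. Cacna1d, a pore subunit of L-type calcium channels, fell by 1.07 (SE 0.10) and Cacna1a and Cacna1b, pores of the P/Q-type and N-type channels, by 0.76 and 0.71. Of 43 GABA and glutamate receptor genes, 3 were higher and 10 lower (23.3%, near the 22.3% of all genes), and of 47 protocadherin genes, adhesion genes with long transcripts, 16 were higher and 4 lower.

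Of 87 potassium channel genes, 1 was higher and 21 were lower (24.1%, near the 22.3% of all genes). Their median was -0.14, and 0.02 with an offset for exon length. That shift was smaller than the SD between libraries of a group and batch, and the offset also moved calls over all genes upward. Kcnk4, a two-pore leak channel gene, fell by 1.04 (SE 0.21). Of 329 zinc finger protein genes, mostly transcription factors, 31 were higher (9.42%) and 110 lower (33.4%). Their median was -0.09, and 0.06 with the offset. Zfp335 fell by 0.73 (SE 0.07). Of 30 histone genes, 9 were higher and 2 lower.

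Of 17 circadian clock genes, 4 were lower (23.5%, near the 22.3% of all genes), namely Per3, Per1, Per2 and Ciart, and 0 were higher. Per3 had 14.04 to 91.9 CPM (median 63.6) in batch A and 14.4 to 39.1 CPM (median 25.1) in batch B, with a log2 fold change of -1.21 (SE 0.15, adjusted p = 1.52e-08), and overlapped only in Bypass, where replicate 11 was the lowest. Per1 and Per2 fell by 0.85 each. The median over the list was 0.00, and 6 of the 17 genes had 1 sign in all groups. Among members not past the test, Clock had -0.10 and Arntl 0.16. Of 10 genes induced by glucocorticoids, 5 were lower and 0 higher, with a median of -0.43. The group medians went both ways, at -0.43 in Sham, 0.10 in Saline, -1.02 in Bypass and -0.31 in PYY_Lira, and 3 of the 10 genes had 1 sign in all groups. Zbtb16, a zinc finger gene induced by corticosteroids, ranged from 14.4 over 27.8 to 136 CPM in A and from 7.34 over 11.5 to 23.9 CPM in B (log2 fold change -1.41, SE 0.24). Pdk4, a brake on pyruvate dehydrogenase, and Sgk1, a kinase of ion transport, fell by 0.82 and 0.64. Fkbp5, a co-chaperone of the glucocorticoid receptor, had -0.38 and Tsc22d3, another target, 0.01, and neither passed the test. Of 16 immediate early genes, which follow neuronal activity, the smallest adjusted p was 0.166 (Ier2, edgeR). The hour at which brains were taken was not given in the sources used here, and its part in these values was not tested.

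Among cell type markers, 5 of 9 oligodendrocyte genes were higher (median 0.44) and 5 of 8 endothelial genes (median 0.25), against 19.3% of all genes. Of 8 astrocyte genes, 4 were higher and 1 lower, with a median of 0.09 and of -0.14 in PYY_Lira. Of 9 microglial genes, 2 were higher (22.2%), a share near that of all genes. Opalin, a gene of mature oligodendrocytes, was 0.69 higher (SE 0.14) and P2ry12, a microglial purine receptor gene, 0.58 (SE 0.10). Of 5 red blood cell genes, 4 were higher, with a median of 2.20. Hbb, a beta globin gene, was at 0.764, 2.30, 2.84, 3.24 and 8.59 CPM in Sham A and at 21.0 to 202 CPM (median 32.9) in Sham B. In PYY_Lira it was at 2.19, 3.47, 9.62, 10.5 and 126 CPM in A and at 16.7, 30.2, 36.9, 61.0 and 80.6 CPM in B, so those overlapped through 1 library. In Saline, batch A reached 5.94 CPM and the lowest library of batch B was at 4.61 CPM. In Bypass, batch A reached 49.2 CPM and the lowest library of batch B was at 14.8 CPM. The batches thus overlapped in every group but Sham, and 13 of the 24 libraries of batch A lay within the range of batch B. The log2 fold change of Hbb was 2.51 (SE 0.57, adjusted p = 0.000454), and LOC100134871 (Hbbl1), a further beta globin gene, was higher by 2.69 (SE 0.54). Globin genes share reads, and 83.7% of the Hbb values were not whole.

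Of the 17 hypothalamic markers, Crh and Pomc were called. Crh, the stress neuropeptide, was 0.90 higher (SE 0.27, adjusted p = 0.00723), with log2 fold changes from 0.67 to 1.10 in the groups. Pomc, the precursor of melanocortins, had a log2 fold change of -2.11 (SE 0.73, adjusted p = 0.0181). It is also a pituitary gene, and its values spread widely, from 1.61 to 1076 CPM in batch A (median 42.9) and from 2.12 to 225 CPM in batch B (median 5.44), so that all groups overlapped. The pituitary genes Cga and Tshb, hormone subunits, fell by 3.48 and 3.17 over the groups together. Of the 6 pituitary genes tested, however, 0 had 1 sign in all groups. Their medians were -5.53 in Sham, -7.19 in Saline, 0.95 in Bypass and -4.86 in PYY_Lira. The summed pituitary genes were at 1.86 to 493.3 CPM (median 13.6) in A and 0.616 to 501 CPM (median 3.37) in B. With scores of pituitary, choroid plexus and meningeal genes in the model the log2 fold change of Pomc was 0.44. Without the 14 libraries rich in such RNA, an alternative chosen after seeing the data, it was 0.02. Of 15 genes of feeding control, 3 were lower (20%, near the 22.3% of all genes) and 0 higher. Insr, the insulin receptor, and Lepr, the leptin receptor, fell by 0.89 (SE 0.16) and 0.88 (SE 0.27), while Npy and Mc4r were not called. Lepr had -0.48 in Sham, 0.07 in Saline, -1.12 in Bypass and -1.76 in PYY_Lira.

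Direction varied with exon length. Genes were divided into deciles by the summed length of their exons, from at most 873 bases in the first to at least 6923 in the last. The median log2 fold change fell from 0.20 in the shortest decile to -0.21 in the longest, and the share of genes called higher fell from 34.9% to 5.57% while the share called lower went from 12.4% to 43.3%. Longest minus shortest was -0.41, and -0.46, -0.57, -0.23 and -0.47 in Sham, Saline, Bypass and PYY_Lira. Without Bypass replicate 11 it was -0.45, without the filter on low counts -0.24 and without genes of mostly fractional values -0.27. Among protein-coding genes it was -0.35, among those with mostly whole values -0.31, among lncRNA genes -0.52 and among pseudogenes -0.68. It was -0.47, -0.49 and -0.45 in the lowest, middle and highest tertile of expression level, so it was present at each level. Across all 21709 genes, which share their libraries and are no replicates, Spearman's rho of the log2 fold change was -0.26 with exon length, -0.14 with the span of the gene on the genome and 0.21 with mean level, as a description. The length did not sort every class. The miRNA genes have a median exon length of 90 bases and were lower, and the median of lncRNA genes was below 0 in each decile. Both classes were scarce, with median mean levels of 0.54 CPM for miRNA and 0.58 CPM for lncRNA genes. In the lowest tertile of level, over all gene types, the median was 0.08 in the shortest decile. It was below 0 in the others, down to -0.39 in the longest, so gene type and level were not separated here.

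**Figure D3:**
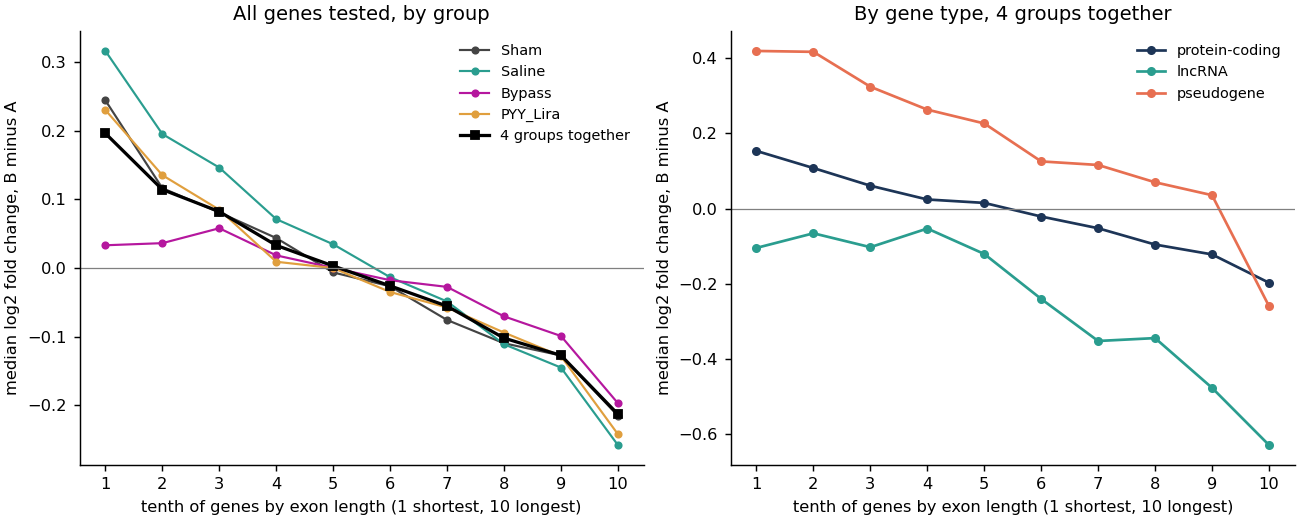
Median log2 fold change (batch B minus batch A) by decile of exon length, for all genes in each group (left) and by gene type over the 4 groups together (right). The lines of all groups fall from left to right, least in Bypass, and lncRNA genes lie below 0 in each decile.

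The same was seen library by library, as the mean log2 CPM over genes of the longest minus that of the shortest decile. In Sham its mean was 2.61 ± 0.25 (SD, n = 5) in A and 2.23 ± 0.11 (SD, n = 6) in B (adjusted p = 0.0231, exact permutation test). In PYY_Lira it was 2.95 ± 0.17 (SD, n = 5) and 2.61 ± 0.20 (SD, n = 5), with the same adjusted p of 0.0231 by exact permutation test. Saline had means of 2.86 and 2.42 without overlap. In Bypass the means were 2.83 and 2.60 (p = 0.393, exact permutation test), and the lowest of all 43 libraries, at 1.83, was Bypass replicate 11 of batch A.

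Within single groups, 1513 genes were higher (6.97%) and 2574 lower (11.9%) in Sham, 1168 higher (5.38%) and 1866 lower (8.6%) in Saline, 187 higher (0.861%) and 660 lower (3.04%) in Bypass, and 1667 higher (7.68%) and 2028 lower (9.34%) in PYY_Lira. Called within all 4 groups were 39 genes higher and 367 lower, and 18 genes were called in opposite directions in 2 groups. Bypass had the fewest, and its count rested on single animals: 847 genes in all, 2005 without replicate 11 of batch A, and 187, 39 and 215 without replicates 12, 13 and 14 of batch B. Saline had 3034 genes, and 924 without replicate 1 and 1390 without replicate 2 of batch A. Sham had 4087, and 2549 without replicate 1. PYY_Lira had 3695, and 2439 without replicate 1 and 2227 without replicate 2. The libraries of a group did not overlap between batches in any of the 4 groups for 13 genes that were higher (0.0599%) and 42 that were lower (0.193%).

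**Figure D4:**
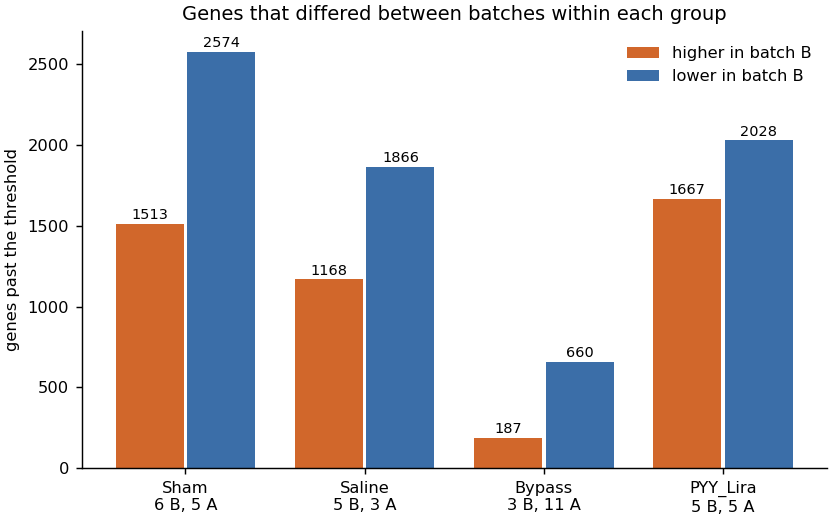
Number of genes past the threshold (Benjamini-Hochberg adjusted p under 0.05) within each group, higher (orange) and lower (blue) in batch B. Bypass, with 3 libraries of batch B, had 187 higher and 660 lower, and in each group more genes were lower.

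The 4 within-group differences come from separate animals. Of all genes tested, 9787 (45.1%) had 1 sign in all 4 groups. Of the genes called over the 4 groups together this was the case for 85.5% of those higher and 89.4% of those lower, a share that the call itself favours. Genes were therefore also called on 3 groups and read in the group left out. Of 3740 genes higher and 4651 lower without Sham, 82.9% and 85.1% had that sign in Sham. Without Saline it was 95.3% of 2838 and 92.5% of 4157 in Saline. In Bypass it was 84.8% of 4387 and 91.6% of 4292, and in PYY_Lira 96.2% of 2626 and 97.3% of 3700. Over all genes, between 49.3% and 52.9% were lower in a group. Across genes, the log2 fold changes of pairs of groups had correlations from 0.22 (Saline and Bypass) to 0.46 (Saline and PYY_Lira), as a description.

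Whether the difference between batches depended on the group was tested by the interaction of both, which passed for 2 genes (0.00921%), while 2536 genes (11.7%) had an unadjusted p under 0.05 and DESeq2 called 298. Mpa2l, an interferon-inducible guanylate-binding protein gene (current symbol Gbp6), had log2 fold changes of 1.71 in Sham, -0.32 in Saline, 0.41 in Bypass and -2.14 in PYY_Lira. Folr2, a folate receptor gene of macrophages, had 2.003, 0.44, -1.78 and -2.75 in the same order. Both had an adjusted p of 0.0369 (edgeR), and Sham and PYY_Lira went in opposite directions. The medians of the meningeal genes were 1.999, 0.45, -2.41 and -2.92 in the same order. Folr2 ranked the groups in the order of these medians and Mpa2l did not. With scores of pituitary, choroid plexus and meningeal genes in the model, 0 genes passed the interaction test (edgeR). Several other settings, listed further below, also gave 0 genes. Whether RNA of neighbouring tissue had a part in the interaction was not tested. Ptpn3, a tyrosine phosphatase gene, and RGD1559482, an immunoglobulin superfamily gene, came next at adjusted p-values of 0.0686 and 0.0811.

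Bypass replicate 11 moved with batch B in these genes. For the 1093 genes that were over 2-fold lower when it was left out of the fit, its median log2 difference from the other 10 Bypass libraries of batch A was -1.59, and that of the Bypass libraries of batch B was -1.12. For 139 genes over 2-fold higher, the medians were 1.06 and 1.01, but among the 57 protein-coding ones they were 0.34 and 1.08.

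A further 22 libraries of groups held in 1 batch were not used for these calls. They were 13 of batch A (6 Lean and 7 BWM, the latter matched to Bypass in body weight by food restriction) and 9 of batch B (5 Lira and 4 PYY, given 1 of the agents), so batch and treatment cannot be told apart among them. Of the genes called on the 43 libraries, 92.1% of the 4840 lower and 96.4% of the 4191 higher had the same direction there, as did 97.3% of the 961 and 87.2% of the 141 over 2-fold. Of all genes, 46.7% were lower there. The median was 0.11 in the shortest and -0.13 in the longest decile of exon length. Snrnp70 had 405 to 702 CPM in the 13 libraries of A and 211 to 265 CPM in the 9 of B, without overlap. The summed miRNA genes were at 78.4 to 146 CPM and 60.9 to 77.6 CPM.

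**Figure D5:**
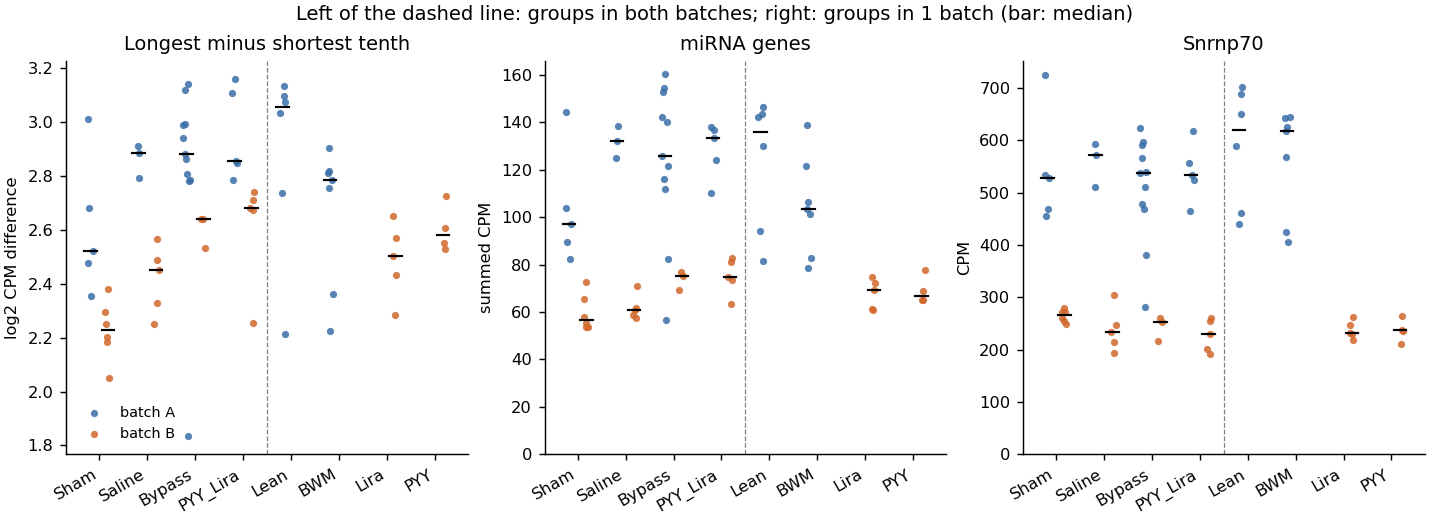
Longest minus shortest decile of exon length (log2 CPM difference), summed CPM of miRNA genes and CPM of Snrnp70 per library, for the groups in both batches (left of the dashed line) and in 1 batch (right), batch A blue and batch B orange, medians as bars. Batch B libraries sit between 192 and 305 CPM of Snrnp70 (scaled over 65 libraries) and all batch A libraries but Bypass replicate 11 at 380 CPM or above.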

How the data were processed

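One table of estimated counts per gene was deposited, with a column for each of 65 libraries. Libraries that keep strand were made by the authors from oligo-dT-selected RNA and sequenced from one end. Per the submitters' processing notes the reads were demultiplexed with bcl2fastq 2.20.0.422, trimmed with cutadapt 1.16 (the methods name later releases as well), mapped with STAR 2.7.2b to Rnor_6.0 and counted by strand on exons with featureCounts 1.6.4, giving reads with several places or features as fractions. Of the nonzero values, 30.2% were not whole at a tolerance of 1e-06. Group and batch were taken from the labels. No 2 libraries were identical: over 219 pairs within groups the lowest chi-square per gene was 12.9.

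Counts were rounded, filtered by filterByExpr (minimum count 10, minimum total 15) and scaled by TMM. The filter took each group and batch as a set of its own, so a gene could pass through 1 batch alone. In R 4.3.3, edgeR 4.0.16 (limma 3.58.1) fitted a robust quasi-likelihood model with group and batch, and a model of 8 group-by-batch means for differences within groups and the interaction. A gene was called at a Benjamini-Hochberg adjusted p under 0.05. Library measures were compared by exact two-sided permutation tests (Python 3.11.15, scipy 1.17.1), adjusted over measures and groups. CPM are scaled by TMM. Exon lengths and coordinates are those of the table. The scripts were tested on simulated data. Classes and lists, written by symbol, are described by counts and medians without a test, since members and lists were chosen with earlier results of these data known.

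Genes named were the 6 higher and 6 lower of smallest adjusted p and the 3 largest changes each way among genes over 2-fold with 1 sign in all groups, the 4 of smallest interaction p, up to 3 of smallest p per class and the 2 most abundant of a gene type. Further members named for comparison, including host genes of miRNA, were chosen after their values were seen. Alternatives were DESeq2 1.42.0, other scalings, no filter, all 65 libraries, groups or libraries left out, tissue scores, an offset for exon length, thinned counts and whole-valued genes. Some members of the lists are not reported here by name.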

Additional observations from a re-analysis of the deposited data

Results flagged for a closer look

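Libraries far from the rest of their group and batch were looked for in 110 sets of 4 to 10 libraries, of which 13 held one. Chance alone flags about 1 in 20 such sets. The highest total of PYY_Lira batch B was 35011015 counts, with the next at 25318793, and the lowest difference between the longest and shortest decile of exon length there was 2.25. Kmt2d was highest at 112 CPM in 1 library of Sham batch B and at 132 CPM in 1 of PYY_Lira batch B, where Dot1l also had its highest value of 56 CPM. RGD1565566 had a lowest value of 1.499 CPM in Saline batch B and Col4a2 of 138 CPM in PYY_Lira batch A. Mir770 reached 46.1 CPM in 1 library of Sham batch A, with the next at 13.6. Zbtb16 reached 89.8 CPM in Sham batch A and 23.9 CPM in Saline batch B. Hbb reached 126 CPM in 1 library of PYY_Lira batch A, with the next at 10.5. Pomc reached 1076 CPM in Sham batch A and 33.6 CPM in PYY_Lira batch B.

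The interaction test over 43 libraries called Mpa2l and Folr2, both at an adjusted p of 0.0369 (edgeR). Leaving out single libraries moved this p between 0.0103 and 0.108 for Mpa2l and between 0.0234 and 0.108 for Folr2, and the call was lost in 25 of 43 such fits for Mpa2l and in 26 of 43 for Folr2. With tissue scores the adjusted p was 0.474 for Mpa2l and 0.780 for Folr2.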

How the results depend on the processing

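No paired analysis was possible because within a group no replicate number occurs in both batches, and an offset for GC content was not run because no exon sequence was given. Leaving out 1 library at a time gave 8423 to 9647 genes that differed between the batches, 997 to 1232 over 2-fold, 9369 to 10200 with 1 sign in all groups and -0.45 to -0.38 for exon length. The counts within groups then ran from 2549 to 5003 (Sham), 924 to 4216 (Saline), 39 to 2005 (Bypass) and 2227 to 4620 (PYY_Lira), and the interaction from 0 to 44 genes, with 44 without Saline replicate 1. The interaction called 298 genes by DESeq2, 4 with all 65 libraries, 1 without the Saline group and 0 without the Sham, Bypass or PYY_Lira group, with tissue scores, with the exon-length offset, on thinned counts, without genes of mostly fractional values and without the 14 libraries rich in pituitary, choroid plexus or meningeal RNA. With each group fitted alone, 1525 genes differed in Sham (387 over 2-fold), 3205 in Saline, 60 in Bypass (21 over 2-fold) and 5381 in PYY_Lira. Bypass had 1538 genes by DESeq2 and 464 without the PYY_Lira group. Tissue scores gave 1204 genes in Saline, 238 in Bypass and 1031 in PYY_Lira. Without the 14 libraries, which left 1 library of Saline batch A and 1 of Bypass batch B, Sham had 2629 genes, Saline 0, Bypass 0 and PYY_Lira 2267, while 6759 differed over the groups together. Without genes of mostly fractional values, 5865 genes differed, 694 over 2-fold, with 2479 in Sham, 1899 in Saline, 456 in Bypass and 2338 in PYY_Lira, as fewer genes were tested. Without the filter 2071 genes were over 2-fold. With the exon-length offset longest minus shortest was -0.060, as the offset is built to remove it, and without the filter it was -0.24. Of the 74 named genes, the sign turned for Errfi1 (0.019) and Lepr (0.079) in Saline alone, for Rn18s (-0.024), mt-Rnr1 (-0.015) and Rn45s (-0.17) in Bypass alone, and for Pomc (0.44 with tissue scores and 0.017 without the 14 libraries). Calls were lost for 65 of them in Bypass alone, 26 in Sham alone, 26 in Saline alone and 18 in PYY_Lira alone, for 9 without the 14 libraries, 3 without the PYY_Lira group, 2 with the exon-length offset, and 1 each by DESeq2, without the Sham group and without the Saline group. Pomc also lost its call without Bypass replicate 3 and without Sham replicate 3 of batch A. The cause of these changes was not tested where none is given. Depth limits the scarce genes, with a median mean level of 0.58 CPM among lncRNA and 0.54 CPM among miRNA genes.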

Other observations

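Some further gene groups showed small or mixed differences. Of all genes tested, 19.3% were higher and 22.3% lower. The median exon length of the protocadherin genes was 4641 bases, and their log2 fold change had a median of 0.12. Of 15 cholesterol synthesis genes, 6 were higher (40%) and 4 lower (26.7%). The enzyme genes Msmo1 and Fdps were higher by 0.33 and 0.29 on the log2 scale and Lss, another enzyme gene, fell by 0.61. Of 10 heat shock genes, 5 were higher (50%), among them the chaperone genes Hspd1 (0.22) and Hsp90aa1 (0.31). The 1 lower (10%) was Hspa1a, which fell by 0.74. Of 16 interferon response genes, 2 were higher (12.5%) and 1 lower (6.25%), both below the shares of all genes. Genes of the X chromosome had a median of 0.04, with 206 of 789 higher (26.1%) and 163 lower (20.7%).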
